A study of Sus scrofa with 13 samples.

Results

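Skeletal muscle fibres contract with fast or slow versions of the same machinery, and the genes described here code for parts of both. They were chosen by symbol: 4 genes of fast fibres (MYH1, MYBPC2, ACTN3 and TNNC2) and 3 of slow fibres (MYH7, TNNC1 and LMOD2), 7 of the 10283 genes the array annotation names. Earlier results of these data were known when they were chosen. RNA levels were measured on microarrays of biceps femoris, a hind-limb muscle, in German Landrace pigs, with 1 array for each of 13 animals. The DMD knockout (KO) pigs lacked exon 52 of the dystrophin gene and were cloned: nuclei came from primary kidney cells that carried a bacterial artificial chromosome without the exon. There were 4 KO animals at 2 days of age, 3 KO at 3 months, 3 wild type (WT) at 2 days and 3 WT at 3 months. KO muscle was taken at necropsy right after the animals had died, whereas WT animals were euthanised at matching ages, so genotype cannot be told apart from the manner of death or from cloning.

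In a muscle fibre, myosin heads of the thick filament pull on actin in the thin filament, and calcium bound by the troponin complex permits this. Fast and slow fibres carry different isoforms of myosin, troponin and associated proteins, encoded by separate genes. Around birth and in the weeks after it, fetal and neonatal isoforms give way to adult ones, and the limb muscles of pigs gain many fast glycolytic fibres. Loss of dystrophin, which links the contractile apparatus to the membrane, is known for damage that affects fast fibres early in Duchenne muscular dystrophy.

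Values are log2 levels of a probe set (a group of probes summarised as 1 value), a scale inferred from the values, so a difference of 1 is a doubling. The median of the 21893 probe sets lay between 7.32 and 7.38 on the 13 arrays. WT replicate 3 at 2 days was the array least like the others. Its mean correlation with the other arrays was 0.918, against 0.943 to 0.964 for the rest. Its 95th percentile was 9.21, against 9.48 to 9.83. Of 10 skeletal muscle markers 6 were measured, and their mean lay between 10.5 and 11.2 on all arrays. Of 7 cardiac markers 4 were measured (NPPA, NPPB, MYL7 and NKX2-5), none passed the test between genotypes or ages, and their mean lay between 7.39 and 7.81. Neither of the 2 DMD probe sets differed between genotypes (at 2 days by 0.11 and 0.23, at 3 months by -0.22 and 0.00, adjusted p from 0.423 to 0.996), and their position within the gene was not analysed here, so they do not check the labels. In whole muscle, fewer fibres of a type and less RNA per fibre cannot be told apart.

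1 array stood apart for the slow genes. In the WT group at 3 months, replicate 3 had the lowest level in 10 of 10 measured genes of a slow contractile list and replicate 2 the highest in 10 of 10, with list means of 9.88 and 11.2. The same 2 animals took opposite places for the fast list: replicate 3 was highest in 6 of 9 genes and replicate 2 lowest in 8 of 9. The fast list means differed less, at 11.7 and 11.5. The genotype differences of slow contractile genes named at 3 months are given with and without WT replicate 3. For the fast list, replicate 1 of the WT group at 2 days was highest in 9 of 9 genes. Its list mean was 11.1, against 10.7 and 10.8 in the other WT animals of that age.

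At 2 days, KO muscle had lower levels of 3 of the 4 fast genes and higher levels of all 3 slow genes. Differences passed the test (limma, Benjamini-Hochberg adjusted p under 0.05 over all 21893 probe sets) in 6 of the 7 genes, against 9.93% of all probe sets called in either direction (2.85% lower, 7.09% higher). The values of the 2 groups did not overlap for those 6 genes, as for 24.6% of all probe sets. The median difference, KO minus WT, was -0.83 for the fast genes and 1.67 for the slow genes, beside -0.02 for all probe sets. Since the 7 genes were chosen with earlier results of these data known, these counts and medians are a description. They do not test fast and slow genes at large. On the longer lists given below, 3 of 9 measured fast genes were lower and 3 of 10 slow genes higher, with medians of -0.21 and 0.85.

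**Figure D1:**
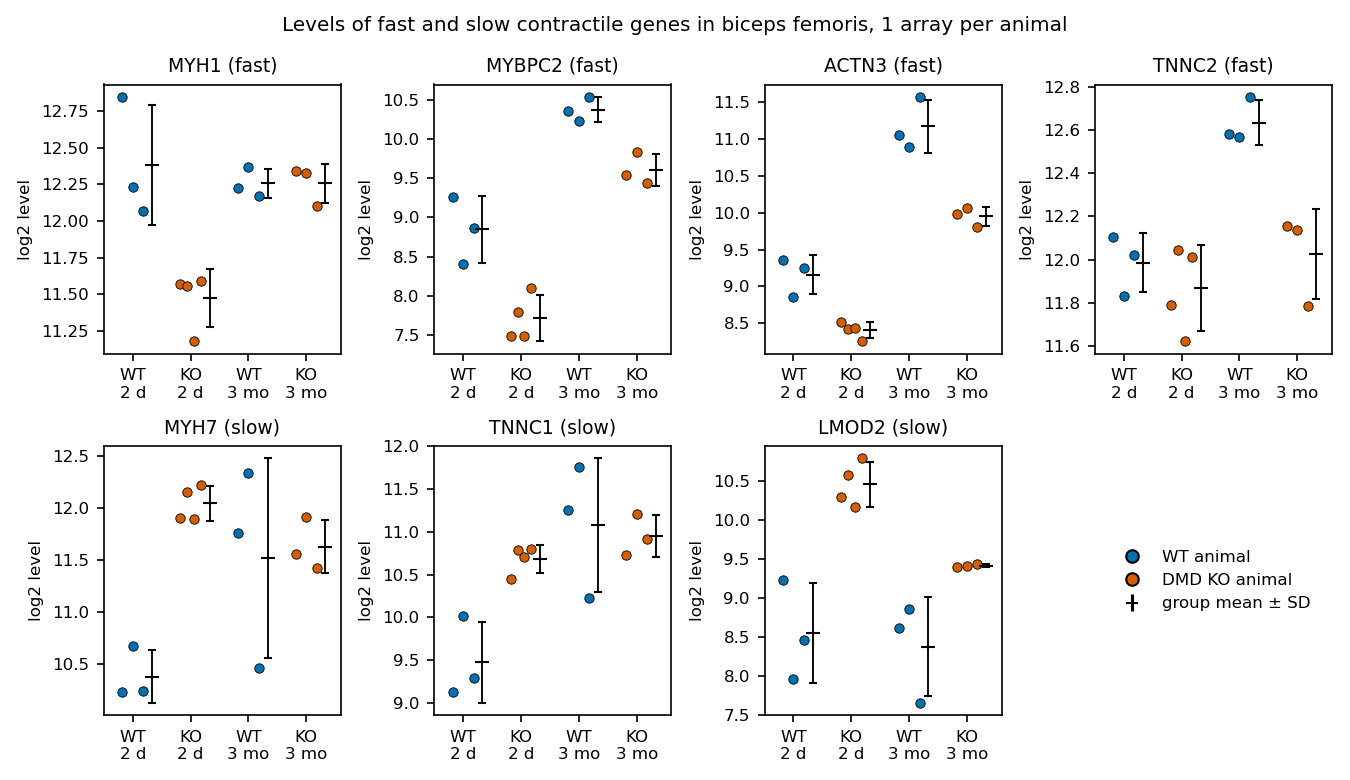
Log2 level (vertical axis, a separate range in each panel that does not start at 0) of the 7 genes in WT (blue) and DMD KO (orange) biceps femoris at 2 days and 3 months. Each point is 1 animal, and the bar beside it is the group mean ± SD over 3 animals, or 4 for KO at 2 days. At 2 days the KO points lie below the WT points for MYH1, MYBPC2 and ACTN3 and above them for MYH7, TNNC1 and LMOD2.

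MYH1 encodes myosin heavy chain IIx, a motor protein of fast fibres. At 2 days it measured 11.57, 11.56, 11.18 and 11.59 in the KO animals and 12.85, 12.23 and 12.07 in the WT animals. Every KO animal was below every WT animal, and KO replicate 3 was the lowest of all. The level was 1.88-fold lower in KO (log2 difference -0.91 ± 0.17 SE, adjusted p = 0.00615, limma). Over the 22 alternative settings the difference ranged from -1.40 to -0.68 and passed in all of them. Fast myosin heavy chain genes are similar to each other, so part of this signal may come from relatives of MYH1, which was not tested.

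MYBPC2, the fast isoform of myosin-binding protein C, which sits on the thick filament, had the larger difference of the fast genes. It measured 7.48, 7.79, 7.49 and 8.10 in the KO animals at 2 days and 9.26, 8.41 and 8.87 in the WT animals. The groups were separate, though the highest KO and lowest WT animals were close. KO was 2.19-fold lower (-1.13 ± 0.20 SE, adjusted p = 0.00479, limma). The difference ranged from -1.62 to -0.93 over the 22 alternative settings and passed in all of them.

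ACTN3 encodes alpha-actinin-3, an actin cross-linker of the Z-disc found in fast glycolytic fibres. Its levels at 2 days were 8.51, 8.42, 8.43 and 8.25 in KO and 9.36, 8.86 and 9.25 in WT. Again no KO animal reached the lowest WT animal. KO was 1.69-fold lower (-0.75 ± 0.16 SE, adjusted p = 0.0126, limma). The difference ranged from -1.24 to -0.65 over the 22 alternative settings and passed in 21 of them.

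The fast gene that did not pass at 2 days was TNNC2, the calcium-binding troponin C of fast fibres. It measured 11.79, 12.05, 11.62 and 12.01 in KO and 12.10, 11.83 and 12.02 in WT, and the groups overlapped. The difference was -0.12, with a 95% interval of -0.40 to 0.16 (adjusted p = 0.57, limma).

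MYH7 encodes the slow, beta-cardiac myosin heavy chain, which defines type I fibres. The KO animals at 2 days measured 11.90, 12.15, 11.89 and 12.22, and the WT animals 10.23, 10.67 and 10.23. The lowest KO animal was well above the highest WT animal. KO was 3.18-fold higher (1.67 ± 0.33 SE, adjusted p = 0.00816, limma).

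For TNNC1, the troponin C of slow and cardiac muscle, the values at 2 days were 10.45, 10.78, 10.71 and 10.80 in KO and 9.13, 10.01 and 9.29 in WT. The groups were separate, with WT replicate 2 nearest to the KO animals. KO was 2.31-fold higher (1.21 ± 0.30 SE, adjusted p = 0.0267, limma). This call was the least stable of the 6: the adjusted p rose to between 0.0617 and 0.0921 without KO replicate 2, 3 or 4 or without WT replicate 1 or 3, each left out alone.

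LMOD2, leiomodin-2, nucleates and elongates thin filaments and is most abundant in heart and slow muscle. It showed the largest difference of the 7 genes at 2 days: 10.29, 10.58, 10.16 and 10.79 in KO and 9.23, 7.96 and 8.45 in WT. All KO animals were above all WT animals. KO was 3.75-fold higher (1.91 ± 0.30 SE, adjusted p = 0.00261, limma). Within the WT animals, LMOD2 was lowest in replicate 2, where MYH7 and TNNC1 were highest.

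**Figure D2:**
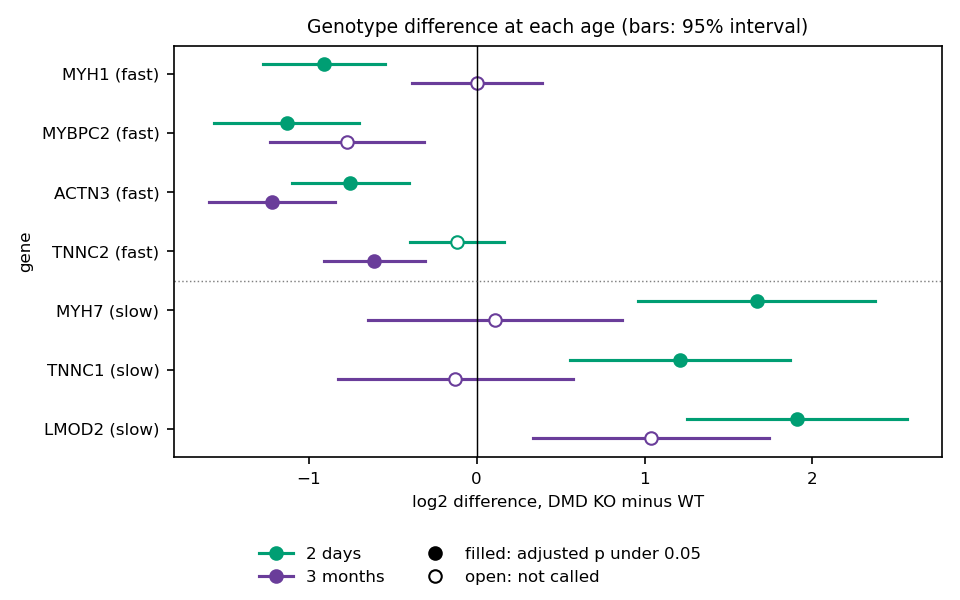
Log2 difference, KO minus WT, for each of the 7 genes at 2 days (green) and 3 months (purple). Points are limma estimates, bars their 95% intervals, and filled points have an adjusted p under 0.05. All 3 slow genes lie at 1.21 or above at 2 days, and at 3 months only ACTN3 and TNNC2 are filled.

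At 3 months the fast genes ACTN3 and TNNC2 were lower in KO, MYBPC2 narrowly missed the threshold, and none of the 3 slow genes passed. Of the 7 genes 2 were called, both lower, beside 5.98% of all probe sets in either direction (1.36% lower, 4.62% higher). Groups did not overlap for 4 of the 7 (MYBPC2, ACTN3, TNNC2 and LMOD2), as for 23% of all probe sets. The median difference was -0.69 for the fast genes, 0.11 for the slow genes and -0.05 for all probe sets.

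ACTN3 measured 9.98, 10.06 and 9.81 in KO and 11.06, 10.89 and 11.57 in WT at this age. The gap between the groups was wider than the range within either. KO was 2.33-fold lower (-1.22 ± 0.17 SE, adjusted p = 0.0011, limma).

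TNNC2 was at 12.15, 12.14 and 11.79 in KO and at 12.58, 12.57 and 12.75 in WT. The groups were separate, and KO replicate 3 was the low animal. The level was 1.53-fold lower in KO (-0.61 ± 0.14 SE, adjusted p = 0.0199, limma). Without KO replicate 3 the difference was -0.49 (adjusted p = 0.0954), and without WT replicate 3 it was -0.55 (0.0908).

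MYBPC2 measured 9.54, 9.83 and 9.44 in KO and 10.36, 10.23 and 10.54 in WT. The groups did not overlap, and the difference of -0.77 ± 0.21 SE fell just outside the threshold (adjusted p = 0.0522, limma). It lay inside under 8 of the 22 alternative settings, among them 4 in which 1 array at 2 days was left out.

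The MYH1 probe set gave no genotype difference that passed at 3 months. The KO animals measured 12.34, 12.32 and 12.10 and the WT animals 12.22, 12.37 and 12.17, and the groups overlapped throughout. The difference was 0.00, with a 95% interval of -0.39 to 0.39 (adjusted p = 0.997, limma). A probe set annotated to MYH2, MYH1 and MYH4 together was higher in KO at this age (1.95 ± 0.21 SE, adjusted p = 0.000158, limma). That probe set is described at the end, and which gene its signal comes from was not tested.

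MYH7 at 3 months measured 11.55, 11.91 and 11.42 in KO and 11.76, 12.33 and 10.46 in WT. The WT animals spanned both sides of the KO animals, with replicate 3 far below the other 2. The difference was 0.11 (95% interval -0.65 to 0.87, adjusted p = 0.874, limma). Without WT replicate 3 it turned to -0.42 (adjusted p = 0.402).

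TNNC1 followed the same arrays: 10.73, 11.21 and 10.92 in KO and 11.26, 11.76 and 10.22 in WT. Here too the KO values lay inside the WT range. The difference was -0.13 (95% interval -0.83 to 0.57, adjusted p = 0.841, limma), and -0.55 without WT replicate 3 (adjusted p = 0.345). Without WT replicate 2 it turned to 0.21 (adjusted p = 0.849). It was also above 0 with array weights (0.33, adjusted p = 0.5) and with centring on skeletal muscle markers (0.27, 0.43).

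LMOD2 at 3 months was at 9.39, 9.41 and 9.43 in KO, a far tighter spread than in the other 3 groups, and at 8.61, 8.85 and 7.65 in WT. All KO animals were above all WT animals. The difference of 1.04 ± 0.32 SE, a 2.05-fold higher level in KO, did not pass (adjusted p = 0.0898, limma), and it was 0.68 without WT replicate 3 (adjusted p = 0.322). It passed under 3 alternatives: without WT replicate 1 at 2 days (1.04, adjusted p = 0.0473), with array weights (1.34, 0.0126) and with centring on skeletal muscle markers (1.43, 0.00185).

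Between 2 days and 3 months, the fast genes MYBPC2 and ACTN3 rose in both genotypes, TNNC2 and the slow gene TNNC1 passed in WT, and MYH1 passed in KO. In WT muscle 4 of the 7 genes were called, all higher (MYBPC2, ACTN3, TNNC2 and TNNC1), beside 2.89% of all probe sets in either direction and 1.71% higher. In KO muscle 3 were called, all fast and all higher (MYH1, MYBPC2 and ACTN3), beside 8.04% of all probe sets and 4.47% higher. Values of the 2 ages did not overlap for 4 genes in WT (MYBPC2, ACTN3, TNNC2 and TNNC1; 13.3% of all probe sets) and for 4 in KO (MYH1, MYBPC2, ACTN3 and LMOD2; 20.8%). The median age difference of the fast genes was 1.09 in WT and 1.17 in KO, that of the slow genes 1.14 and -0.42, and that of all probe sets -0.01 and -0.02. These 2 age comparisons share no animals with each other, but each shares its animals with the genotype comparisons above.

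ACTN3 had the largest rise in WT muscle, by 2.01 ± 0.17 SE or 4.04-fold (adjusted p = 7.47e-05, limma). In KO muscle it rose by 1.55 ± 0.16 SE or 2.92-fold (adjusted p = 8.38e-05). MYBPC2 rose 2.89-fold in WT (1.53 ± 0.21 SE, adjusted p = 0.00257) and 3.70-fold in KO (1.89 ± 0.20 SE, adjusted p = 8.89e-05). For both genes every animal at 3 months was above every animal of its genotype at 2 days.

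MYH1 and TNNC2 each rose in 1 genotype. The level of MYH1 rose 1.72-fold in KO (0.78 ± 0.17 SE, adjusted p = 0.0107, limma) and differed by -0.13 in WT (95% interval -0.51 to 0.26, adjusted p = 0.893). Without KO replicate 2 at 3 months the adjusted p for MYH1 in KO was 0.0509. The WT difference of MYH1 passed with array weights (-0.52, adjusted p = 0.0404) and with centring on skeletal muscle markers (-0.49, 0.0364). Without WT replicate 1 at 2 days that difference was 0.11 (0.858). TNNC2 rose 1.57-fold in WT (0.65 ± 0.14 SE, adjusted p = 0.026), a call lost without WT replicate 2 at 2 days (0.0753) or without any 1 of the WT animals at 3 months (0.0536 to 0.102). In KO it differed by 0.16 (95% interval -0.12 to 0.44, adjusted p = 0.67).

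Among the slow genes, TNNC1 rose 3.04-fold in WT (1.60 ± 0.32 SE, adjusted p = 0.0202, limma), and MYH7 differed by 1.14 ± 0.35 SE without passing (adjusted p = 0.121). Leaving out WT replicate 3 at 3 months brought MYH7 to 1.67 (adjusted p = 0.00249) and TNNC1 to 2.03 (0.00242). TNNC1 lost its call without WT replicate 1 at 2 days (1.43, adjusted p = 0.0665) and without WT replicate 1 or 2 at 3 months (1.51 and 1.26, adjusted p 0.0676 and 0.0615). The call was also lost in a fit on the WT groups alone (adjusted p = 0.257). In KO muscle the age differences of MYH7 and TNNC1 were -0.42 (adjusted p = 0.648) and 0.27 (0.809).

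With age LMOD2 passed in neither genotype. It differed by -0.17 in WT (95% interval -0.87 to 0.53, adjusted p = 0.92, limma), a value that turned to 0.19 without WT replicate 3 at 3 months (0.923) and to 0.17 without WT replicate 1 at 2 days (0.905). With array weights the WT difference of LMOD2 was -0.99 and passed (0.0494). In KO it differed by -1.04 ± 0.30 SE, and all 3 animals at 3 months were below all 4 at 2 days. The KO difference missed the threshold (adjusted p = 0.0551) and passed it without WT replicate 3 at 3 months (0.0227), as it did under 6 other settings. A difference between LMOD2 and MYH7 or TNNC1 was not tested.

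**Figure D3:**
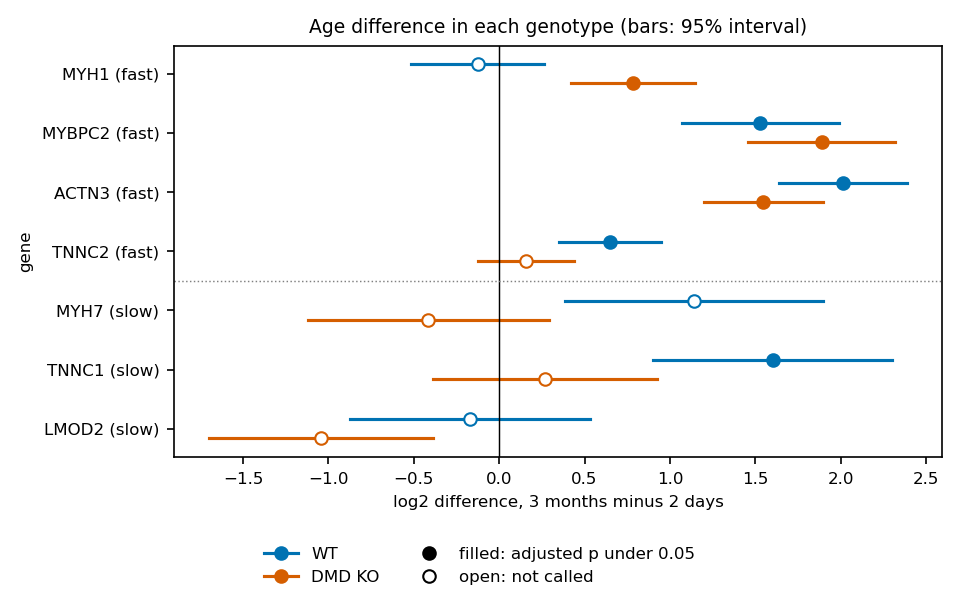
Log2 difference, 3 months minus 2 days, for each of the 7 genes in WT (blue) and DMD KO (orange) muscle. Points are limma estimates, bars their 95% intervals, and filled points have an adjusted p under 0.05. MYBPC2 and ACTN3 are filled in both genotypes, at 1.53 and 2.01 in WT and at 1.89 and 1.55 in KO.

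Whether the genotype difference itself changed with age was tested by the interaction, the difference at 3 months minus that at 2 days. None of the 7 genes passed, beside 5.05% of all probe sets. At an unadjusted p under 0.05 there were 4 (MYH1, TNNC2, MYH7 and TNNC1). The values were 0.91 ± 0.24 SE for MYH1 (adjusted p = 0.0532, limma), 0.36 for MYBPC2 (0.666), -0.47 for ACTN3 (0.378) and -0.49 for TNNC2 (0.195). For the slow genes they were -1.56 ± 0.48 SE for MYH7 (0.0915), -1.34 ± 0.44 SE for TNNC1 (0.122) and -0.87 for LMOD2 (0.383). Without WT replicate 3 at 3 months, MYH7 reached -2.09 (adjusted p = 0.00182) and TNNC1 -1.76 (0.0129), so the call for both turns on that animal, and LMOD2 was at -1.23 (0.12). MYH1 passed under 5 settings, among them without WT replicate 3 at 2 days (1.07, adjusted p = 0.0183).

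The order of the 4 groups differed by gene. For the steps that cross both genotype and age, 4.71% of all probe sets were called between KO at 3 months and WT at 2 days and 9.64% between WT at 3 months and KO at 2 days. ACTN3 rose from KO at 2 days (8.40 ± 0.11, SD, n = 4) through WT at 2 days (9.16 ± 0.27, n = 3) and KO at 3 months (9.95 ± 0.13, n = 3) to WT at 3 months (11.17 ± 0.36, n = 3), and every step passed the test (adjusted p 0.0126, 0.0201 and 0.0011, limma). MYBPC2 had the same order, from 7.71 ± 0.30 (SD, n = 4) to 10.37 ± 0.16 (n = 3), with the first step passed and the others at adjusted p 0.0662 and 0.0522. On its own probe set MYH1 was low in KO at 2 days alone, at 11.47 ± 0.20 (SD, n = 4). Between the other 3 groups, at 12.26 to 12.38, no difference passed. TNNC2 was high in WT at 3 months alone, at 12.63 ± 0.10 (SD, n = 3), over 3 groups at 11.87 to 12.03 between which no difference passed.

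MYH7 was lowest in WT at 2 days, at 10.37 ± 0.25 (SD, n = 3), and the other groups lay between 11.52 and 12.04 with no step between neighbours that passed. TNNC1 was also lowest in WT at 2 days, at 9.48 ± 0.47 (SD, n = 3), with the others between 10.69 and 11.08; the step to the next group passed (adjusted p = 0.0267, limma). LMOD2 was highest in KO at 2 days, at 10.45 ± 0.28 (SD, n = 4), then KO at 3 months at 9.41 ± 0.02, WT at 2 days at 8.55 ± 0.64 and WT at 3 months at 8.37 ± 0.63 (n = 3 each). No neighbouring step of LMOD2 passed (adjusted p 0.0551, 0.156 and 0.92), although KO at 2 days and WT at 3 months differed 4.23-fold (adjusted p = 0.00098).

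**Figure D4:**
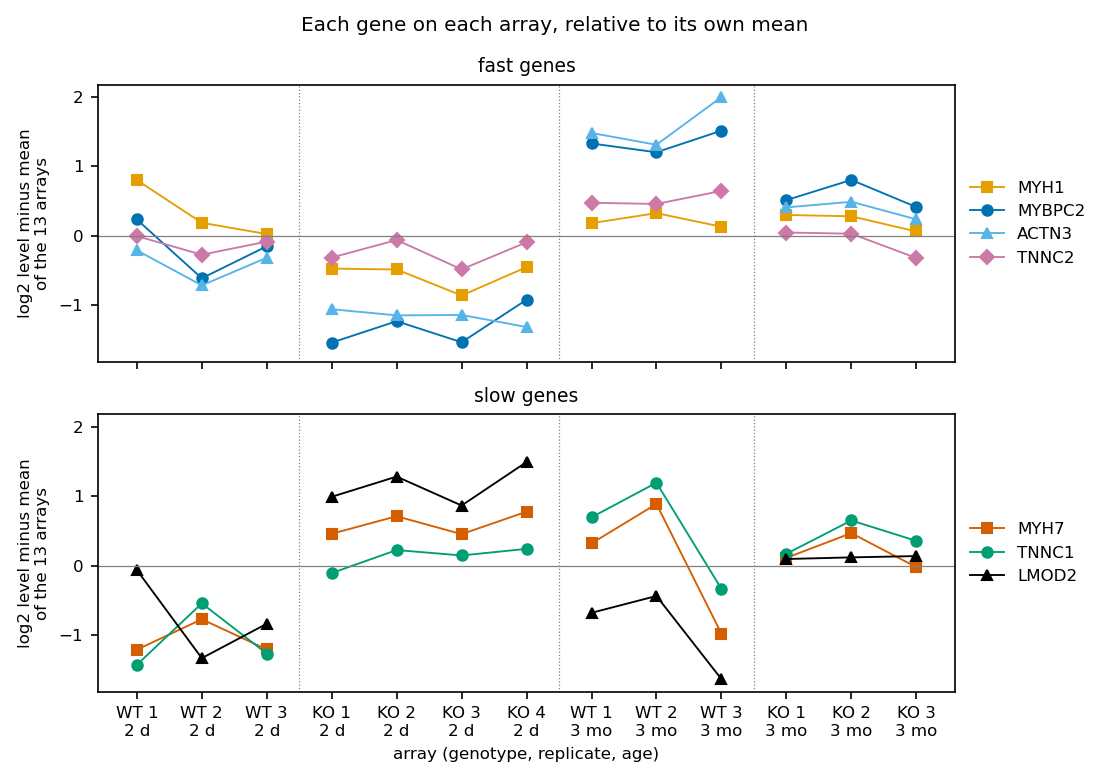
Log2 level of each gene on each of the 13 arrays minus its own mean (vertical axis), for the fast genes (top) and the slow genes (bottom). Lines only join the points of 1 gene within a group, dotted lines set the groups apart, and replicates have no order. In WT at 3 months replicate 3 is low for all 3 slow genes, at 10.46 for MYH7 against 11.76 and 12.33.

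Likeness to other genes was measured as the root mean square difference of log2 levels over the 13 arrays after each gene was centred on its own mean, among 10282 other named genes. Since all genes share the same arrays, this is a description with no test. MYH7 and TNNC1 were each other's nearest gene (0.38), whereas each had a root mean square of its own of 0.74 and 0.72. Next to MYH7 came IFRD1 (0.43) and TPM3 (0.43), the latter a slow tropomyosin, and next to TNNC1 came CLIC2 (0.39) and B2M (0.39). LMOD2 was nearest to CDC14A (0.31), NT5C2 (0.34) and ABHD2 (0.38). In the ordering around LMOD2, MYH7 came only at place 352 and TNNC1 at 7927.

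ACTN3 and MYBPC2 lay close together (0.30), with PGM1 (0.29), a glycogen-pathway enzyme, nearest to ACTN3 and MSTN (0.25), which codes for myostatin, nearest to MYBPC2. STBD1, a glycogen-binding protein, came next for both (0.32 and 0.34). TNNC2 was nearest to ACTA1 (0.12), skeletal actin, followed by MACROD1 (0.13) and MYLPF (0.14), a fast regulatory light chain. MYH1 was nearest to LMOD3 (0.20), the leiomodin of skeletal muscle, then CDC42EP3 (0.25) and OLFML2B (0.26).

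Of 13 genes listed as fast contractile, 9 were measured here, 5 of them not among the 7 genes above. None of those 5 (MYL1, MYLPF, TPM1, MYLK2 and MYOZ1) passed at either age between genotypes, so the list counts were 3 of 9 lower at 2 days and 2 of 9 lower at 3 months, with 0 higher. The list medians were -0.21 and -0.31. At 2 days MYOZ1, a Z-disc protein of fast fibres, differed by 0.57 (adjusted p = 0.0754, limma), opposite in sign to MYH1, MYBPC2 and ACTN3, and at 3 months by -0.52 (0.181). The difference at 2 days passed without KO replicate 3 (0.73, 0.0252) or WT replicate 1 (0.81, 0.0144). MYLK2 also had a higher mean in KO at 2 days, 8.55 against 8.26, whereas MYL1, MYLPF and TPM1 had lower means in KO.

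With age 5 of the 9 fast genes rose in WT muscle and 3 in KO, with none lower. The 2 further genes in WT were MYOZ1 (1.12 ± 0.20 SE, adjusted p = 0.0106, limma) and MYLK2 (0.56 ± 0.13 SE, 0.034), a kinase of the fast regulatory light chain. MYOZ1 differed by 0.03 in KO (adjusted p = 0.983), and the interaction passed (-1.09 ± 0.28 SE, adjusted p = 0.0408). That interaction was lost in 11 of the 13 fits that left out 1 array, at adjusted p 0.0663 to 0.0918, and the MYLK2 call was lost under several (up to 0.115).

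Of 13 slow contractile genes 10 were measured, and 3 were higher at 2 days, the same LMOD2, MYH7 and TNNC1, with a list median of 0.85. CSRP3, a Z-disc protein of slow and cardiac muscle, had a difference of 1.37 (adjusted p = 0.0907, limma) and MYL3, the slow essential light chain, of 1.01 (0.0788), and neither passed. Both passed without WT replicate 3 at 3 months (0.0226 and 0.0414) or WT replicate 2 at that age (0.0351 and 0.0478), which leaves their differences as they are. At 3 months 1 of the 10 was higher in KO, beside 4.62% of all probe sets. That was CSRP3: 11.83, 11.86 and 10.59 in KO and 9.51, 10.67 and 7.97 in WT. The groups overlapped by 1 animal each. CSRP3 was 4.12-fold higher (2.04 ± 0.51 SE, adjusted p = 0.0346), and 1.34 with an adjusted p of 0.09 without WT replicate 3. The call was also lost without any 1 of the KO animals at 2 days (0.0513 to 0.0528) and without KO replicate 1 or 2 or WT replicate 1 at 3 months (0.114, 0.121 and 0.0586).

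MYL3 differed from WT in opposite directions at the 2 ages, 1.01 at 2 days and -1.05 at 3 months, neither of which passed. Without WT replicate 3 the latter was -1.47 (adjusted p = 0.0312). Its interaction did (-2.07 ± 0.50 SE, adjusted p = 0.0308, limma), and it was -2.48 (0.00807) without WT replicate 3 at 3 months. With 1 other array left out, the call was lost in 8 cases, at adjusted p 0.0507 to 0.0738. With age, TNNC1 alone of the 10 slow genes rose in WT and none of the 10 was called in KO.

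**Figure D5:**
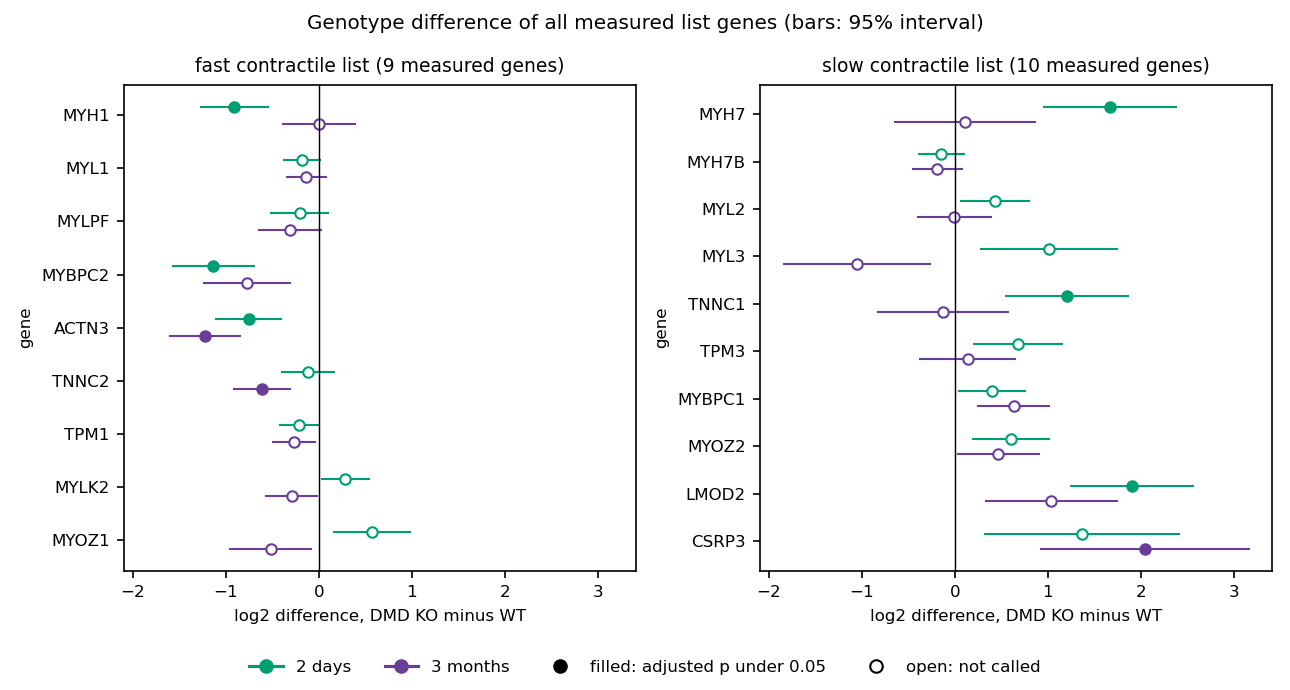
Log2 difference, KO minus WT, of the 9 measured fast contractile genes (left) and the 10 measured slow contractile genes (right) at 2 days (green) and 3 months (purple). Points are limma estimates, bars 95% intervals, and filled points have an adjusted p under 0.05. CSRP3 is the one slow gene filled at 3 months, at 2.04, and MYL3 lies on opposite sides of 0 at the 2 ages, at 1.01 and -1.05.

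LMOD2 belongs to a group of proteins that set thin filament length, of which 9 of 12 listed were measured. At 2 days 3 were higher in KO (LMOD2, NRAP at 0.80 ± 0.15 SE and KLHL40 at 0.41 ± 0.11 SE) and 2 were lower (TMOD2 at -0.51 ± 0.13 SE and LMOD3 at -0.46 ± 0.13 SE, adjusted p 0.0066 to 0.0413 for these 4, limma). NRAP guides myofibril assembly, KLHL40 stabilises LMOD3 and nebulin, and tropomodulins such as TMOD2 cap filament ends. Thus 2 leiomodins went in opposite directions at 2 days. The calls for TMOD2, LMOD3 and KLHL40 were each lost without 1 or another array (adjusted p up to 0.122). TMOD2 was dim, with means at 2 days of 7.02 in KO and 7.53 in WT, on either side of the array medians. At 3 months 1 of 9 passed, TMOD4, a skeletal muscle tropomodulin, at -0.94 ± 0.16 SE (adjusted p = 0.00432). Of all probe sets 9.93% were called at 2 days and 5.98% at 3 months.

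With age TMOD4 rose in both genotypes, by 1.20 ± 0.16 SE in WT (adjusted p = 0.00246, limma) and 0.60 ± 0.15 SE in KO (0.0294). LMOD3 rose in KO by 0.66 ± 0.13 SE (adjusted p = 0.0064) and TMOD2 fell by 0.61 on the log2 scale in WT (0.0374). The calls for TMOD4 in KO (up to 0.142) and TMOD2 in WT (up to 0.131) were lost with some single arrays left out. The list had 0 calls in the interaction, beside 5.05% of all probe sets.

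Calcium handling differs between fibre types, and part of it was measured beside these genes. Of 4 measured fast-fibre genes, CASQ1, the fast calsequestrin, was lower in KO at 2 days (-0.41 ± 0.11 SE, adjusted p = 0.0404, limma; up to 0.102 without 1 array). At 3 months PVALB, the calcium buffer parvalbumin, was lower by -4.96 ± 0.32 SE (adjusted p = 4.82e-06) and ATP2A1, the fast calcium pump, by -0.95 ± 0.15 SE (0.00214). Of 3 measured slow-fibre genes, CASQ2, the slow and cardiac calsequestrin, was higher in KO at both ages, by 0.91 ± 0.23 SE (0.0302; up to 0.126 without 1 array) and 3.46 ± 0.25 SE (9.87e-06). In WT muscle the fast list rose with age in 3 of 4 (PVALB 5.11, ATP2A1 0.60 and CASQ1 0.55, the latter 2 with adjusted p up to 0.149 and 0.104 without 1 array) and CASQ2 fell by 2.86 on the log2 scale. In KO muscle CASQ1 alone rose (0.59).

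Developmental contractile isoforms were represented by 2 of 7 listed genes, and both were higher in KO at 3 months. ACTC1, cardiac actin of developing muscle, differed by 3.25 ± 0.23 SE (adjusted p = 8.16e-06, limma) and MYL4, the embryonic light chain, by 1.03 ± 0.18 SE (0.00417). At 2 days neither was called (-0.51 and 0.10). MYL4 was dim: its mean was 7.95 in KO at 3 months and 6.45 to 6.93 in the other groups, below the array medians. In WT muscle ACTC1 fell by 3.44 on the log2 scale with age, and in KO muscle MYL4 rose by 1.40.

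Genes known to set fibre type were measured in part. None of 4 measured regulators of the fast programme passed between genotypes, and the largest values at 2 days were TBX15 at 0.56 (adjusted p = 0.0981, limma) and EYA1 at 0.34 (0.529). TBX15, a transcription factor of glycolytic fibres, fell by 0.84 on the log2 scale with age in KO (0.0228; up to 0.108 without 1 array). Of 10 measured regulators of the slow programme 1 passed at 2 days, MEF2D, a transcription factor of muscle genes, which was higher in KO by 0.65 ± 0.10 SE (adjusted p = 0.002), a share like the 9.93% of all probe sets called there. At 3 months 0 of the 10 passed, beside 5.98% of all probe sets. The largest values were ESRRG at -0.92 (adjusted p = 0.0541) and MEF2C at 0.54 (0.0861). Without WT replicate 3 ESRRG was at -1.12 (0.041) and MEF2C at 0.56 (0.177). With age in KO, MYOG rose by 0.35 (0.0314, up to 0.135 without 1 array). MEF2D fell by 0.44 on the log2 scale in KO (0.0136, and 0.0623 without KO replicate 1 at 3 months), while 0 of the 10 passed in WT. Of all probe sets 8.04% were called with age in KO and 2.89% in WT.

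Markers of some other cell types also differed between genotypes. Of all probe sets 9.93% were called at 2 days and 5.98% at 3 months. The mean of 6 measured skeletal muscle markers was 11.0 to 11.2 in KO and 10.5 to 10.8 in WT at 2 days (2 of 6 higher in KO), and 10.5 to 10.7 in KO and 11.0 to 11.1 in WT at 3 months (1 of 6 lower). Of 7 fibroblast markers 5 were lower in KO at 2 days, with list means of 9.44 to 9.67 against 10.5 to 10.7, and 5 were higher at 3 months, with 10.7 on all KO arrays against 9.77 to 10.1. Tendon markers were lower in KO in 3 of 4 at 2 days (6.32 to 6.82 against 7.60 to 9.33). Macrophage markers were higher in KO in 3 of 4 at 3 months (8.15 to 9.01 against 6.58 to 6.84) and in 0 of 4 at 2 days. Adipocyte markers were lower in KO in 2 of 6 at 2 days (SCD and DGAT2), with list means of 7.61 to 7.70 against 7.66 to 8.64, and in 0 of 6 at 3 months. Of 4 endothelial markers TEK was higher in KO at 2 days and none passed at 3 months. None of the 4 cardiac, 5 smooth muscle, 1 satellite cell and 4 red blood cell markers measured passed between genotypes at either age. The part of these shifts in the fast and slow gene differences was not tested.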

How the data were processed

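Per the submitters' processing notes, the deposited log2 values come from Affymetrix Power Tools, with version, settings and array build not given in the sources. The base of the log2 scale was inferred from the values. RNA came from a Trizol extraction and carried a biotin label, per the labels' protocols. Of 21893 probe sets, 11028 carried 1 gene symbol, 418 several and 10447 none in the platform annotation. The brightest probe set stood for a gene; ACTN3 had 2 with identical values and the other 6 genes 1 each. Levels of different probe sets were not compared with each other.

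All 13 arrays entered 1 limma 3.58.1 model (R 4.3.3; lmFit, eBayes) of 4 groups with 9 residual degrees of freedom, two-sided, with Benjamini-Hochberg adjustment over all probe sets per comparison and a threshold of 0.05. The script was tested on simulated data. Named were the 7 genes and, per list, up to 4 called genes in each direction or the 2 largest where 0 were called; other genes were named after their values were seen. The genes, lists and markers were chosen with earlier results of these data known. 22 alternatives were tried. The number of arrays limits the precision.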

Additional observations from a re-analysis of the deposited data

Results flagged for a closer look

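Among the 50 genes tested in the KO group at 2 days, the one group of 4 animals, 4 had an animal farther from the others than Dixon's 95% critical value of 0.829 allows, where chance gives about 1 in 20. MYH1 was 11.2 in replicate 3 against 11.56 to 11.59 in the others. MYOZ1 was 9.41 in the same replicate against 9.99 to 10.1, and KLHL40 was 8.26 there against 7.97 to 7.99. MEF2C, a transcription factor of muscle genes, was 10.6 in replicate 4 against 10.94 to 10.95.

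Of the 50 genes tested, all on the pathway lists, 8 passed in the interaction term of the limma fit, beside 5.05% of all probe sets. Among contractile genes these were MYOZ1 (-1.09, adjusted p = 0.0408), MYL3 (-2.07, 0.0308), MYL4 (0.92, 0.0484) and ACTC1 (3.76, 3.85e-05). Among calcium-handling genes they were ATP2A1 (-1.02, 0.0117), PVALB (-4.49, 0.000117) and CASQ2 (2.56, 0.00107). The remaining one was the regulator MEF2D (-0.62, 0.026). With 1 array left out, the highest adjusted p was 0.126 for MYL4 and 0.0676 for MEF2D. The calls for MYOZ1 and MYL3 were also lost with some single arrays left out, as given above. The value for MEF2D changed sign with centring on skeletal muscle markers.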

How the results depend on the processing

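Results were recomputed under 22 alternatives. Counts below are of all probe sets, then of the 7 genes. A fit on the compared groups alone called 1275 probe sets at 2 days (2175 in the reported fit) and 40 with age in WT (633 in the reported fit). With age in WT it called 1 of 7 genes, against 4 in the reported fit. There the adjusted p (limma) was 0.0767 for MYBPC2, 0.115 for TNNC2 and 0.257 for TNNC1. Array weights, whose fit stopped short of its tolerance, called 5438 at 2 days, 3412 at 3 months (1310; 4 of 7 genes, 2 reported), 2562 with age in WT, 3743 with age in KO (1760) and 2760 in the interaction (1105; 1 of 7 genes, 0 reported). Quantile normalization and a filter on dim probe sets each called 1 of 7 in the interaction, MYH1. Quantile normalization also took TNNC1 at 2 days to 0.0517.

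Centring on skeletal muscle markers moved the median of all probe sets by -0.49 at 2 days, 0.39 at 3 months, -0.37 and 0.51 with age in WT and KO, and 0.88 in the interaction. It called 15193, 7189, 6126, 16847 and 18335 probe sets, with 5 of 7 genes in KO with age (3 reported) and 2 in the interaction. It reversed KLHL40 at 2 days (-0.079) and MEF2D with age in KO (0.072) and in the interaction (0.26). Among the 7 genes, signs turned without a call for ACTN3 (0.41), TNNC2 (0.39) and LMOD2 (0.01) in the interaction. The same held for MYH7 with age in KO (0.10) and TNNC1 at 3 months (0.27). TNNC2 was called at 2 days (-0.61, adjusted p = 0.00255, limma) and not at 3 months (-0.21, 0.242). The share of called probe sets that were higher was 71.4% at 2 days (58.2% with weights, 3.05% with this centring), 77.3% at 3 months (98.8%), 59.2% with age in WT (77.5% in the fit alone, 39.0% with weights, 3.80%), 55.6% in KO (98.6%) and 60.5% in the interaction (99.5%).

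The labels do not say whether animals with the same replicate number were matched. Over 18 same-numbered pairs, deviations from the group mean correlated at -0.50 to 0.33, with 4 over 0.1. Pairs with different numbers were not compared, so these values cannot decide whether animals were matched. With the replicate number as a block, 735, 829, 325, 1087 and 580 probe sets were called in the same order, and 1 of 7 genes at 3 months; ACTN3 at 2 days had 0.0649, TNNC2 at 3 months 0.0578 and TNNC2 with age in WT 0.0752. Leaving out 1 array in turn, probe sets called ranged from 1143 (without KO replicate 4 at 2 days) to 3210 (without WT replicate 2 at 2 days) at 2 days, from 702 (without KO replicate 3 at 3 months) to 2036 (without WT replicate 3 at 2 days) at 3 months, from 368 (without WT replicate 3 at 3 months) to 757 with age in WT, from 1180 to 2294 in KO and from 789 to 1265 in the interaction; the 7 genes gave 5 to 6, 1 to 4, 2 to 4, 2 to 4 and 0 to 2 calls. Causes of these changes were not tested. Nothing says whether animals of a group were littermates, and groups hold 3 or 4 animals.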

Other observations

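A probe set annotated to 3 fast myosin heavy chains at once (MYH2, MYH1 and MYH4), which therefore names no single gene, had a pattern unlike that of the MYH1 probe set. At 3 months it measured 12.37, 12.37 and 12.54 in the KO animals and 10.95, 10.23 and 10.25 in the WT animals. It was 3.87-fold higher in KO (log2 difference 1.95 ± 0.21 SE, adjusted p = 0.000158, limma), at an age when the MYH1 probe set differed by 0.00. With age it fell by 1.35 on the log2 scale in WT (adjusted p = 0.00441) and differed by 0.28 in KO (0.576), and the interaction was 1.63 ± 0.29 SE (0.00587). At 2 days the difference was 0.32 (adjusted p = 0.302). This probe set was chosen after its values were seen, and which of the myosin genes its signal comes from was not tested.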
